A study of Mus musculus with 2 samples.

Results

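The 10 genes described here, H19, Igf2, Igf2r, Cdkn1c, Kcnq1ot1, Dlk1, Meg3, Peg3, Grb10 and Mest, are imprinted genes with known roles in fetal growth. They were chosen by name and not by any measured value, and all 10 were found among the 55413 genes of the GENCODE vM21 mouse annotation. Of these, 7 are protein-coding and 3 (H19, Kcnq1ot1 and Meg3) are non-coding. Open chromatin was mapped by DNase-seq, which sequences DNA ends left where DNase I cuts accessible chromatin. The tissue was embryonic mouse liver at day 13.5, strain C57BL/6N,129, and both libraries carried the genotype given as LCR deletion, HET globin mutation. The 2 libraries are biological replicates 1 and 2 of 1 group and share a donor identifier, and sex was not recorded. No wild-type, adult or other control group belongs to the series, so no effect of the genotype or of age could be measured. The labels do not say what LCR stands for, how far the deletion reaches or whether embryos were pooled.

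Imprinted genes are transcribed mainly from a single parental allele, and most sit in clusters governed by an imprinting control region that is methylated on 1 parental chromosome. On the unmethylated chromosome such a region can bind CTCF, a zinc finger protein that blocks enhancers and anchors loops, or act as the promoter of a long non-coding RNA that silences its neighbours. ZFP57 binds methylated copies of its recognition sequence and helps to keep the methylation. Igf2, Dlk1, Peg3 and Mest are expressed from the paternal allele, and H19, Igf2r, Cdkn1c, Meg3 and, in most tissues, Grb10 from the maternal allele. The files do not separate the parental alleles. A low value could come from few cells with the site open, from opening on 1 allele or from weak opening in all cells, and these cannot be told apart.

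The sequences that the results turn on come from the RefSeq genome GRCm38, the build of the files (mm10). First are the matches to a core CTCF pattern, CCNNNNGGNGGC on either strand, that lie under a footprint in both libraries, and with them the 4 clustered from 2168 to 3893 bases upstream of H19. A footprint is a short stretch within open chromatin that is protected from DNase I, and the authors called footprints in each library. Each line reads 5′ to 3′ in the direction of the pattern, with the match in capitals and 7 bases on each side. The coordinates are those of the match and the sign is its strand.
H19 upstream 1, chr7:142580311-142580322 (-): gacgatgCCGCGTGGTGGCagtacaa
H19 upstream 2, chr7:142580766-142580777 (-): gatgctaCCGCGCGGTGGCagcatac
H19 upstream 3, chr7:142581792-142581803 (-): agggttgCCGCACGGCGGCagtgaag
H19 upstream 4, chr7:142582036-142582047 (-): ggagttgCCGCGTGGTGGCagcaaaa
Gm33148 intron between H19 and Igf2, chr7:142610753-142610764 (+): ccgctgaCCTCACGGGGGCgcaagag
Dlk1 upstream, chr12:109437907-109437918 (+): agacccgCCGGCAGGGGGCgcagcca
Meg3 exon, chr12:109543040-109543051 (-): atagagaCCGCTAGGGGGCgcgcggc
Cdkn1c upstream 1, chr7:143464080-143464091 (-): aagtcggCCACCAGGGGGCagcatga
Cdkn1c upstream 2, chr7:143466498-143466509 (-): tctctgaCCACCAGGGGGCagaatga
Cdkn1c upstream 3, chr7:143480700-143480711 (+): gggagttCCACCAGGGGGCgctacag
The first Cdkn1c match also reads as a match on the other strand, shifted by 1 base. In 3 of the 4 matches upstream of H19 the letters of the ZFP57 core, TGCCGC on either strand, overlap the CTCF pattern. The exception is the second, at 142580766. None of the other 6 printed matches overlaps the ZFP57 letters.

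Whole peaks follow for sites that the values below describe, all on the plus strand. Capitals mark the CTCF pattern in the first peak, footprints of the library named in the next 4, the YY1 pattern in the Peg3 peak and the ZFP57 letters in the Airn peak. The first was chosen because it is the only peak upstream of H19 that lies at one of the 4 clustered matches.
H19 upstream, replicate 2, chr7:142580704-142580831: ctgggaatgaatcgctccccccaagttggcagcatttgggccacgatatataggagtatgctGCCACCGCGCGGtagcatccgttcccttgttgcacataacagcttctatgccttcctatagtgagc
Gm33148 intron between H19 and Igf2, replicate 1 footprints, chr7:142611181-142611400: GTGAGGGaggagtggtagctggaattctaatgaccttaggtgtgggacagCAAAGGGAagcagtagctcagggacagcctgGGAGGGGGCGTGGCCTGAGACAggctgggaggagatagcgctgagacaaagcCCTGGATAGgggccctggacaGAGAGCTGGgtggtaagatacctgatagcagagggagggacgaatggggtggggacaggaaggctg
Dlk1 upstream, replicate 1 footprints, chr12:109437801-109438020: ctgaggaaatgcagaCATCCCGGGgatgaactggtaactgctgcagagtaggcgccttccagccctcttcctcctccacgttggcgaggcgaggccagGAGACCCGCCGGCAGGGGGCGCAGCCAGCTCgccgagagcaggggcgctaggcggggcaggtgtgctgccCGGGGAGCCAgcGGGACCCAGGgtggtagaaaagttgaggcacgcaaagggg
Meg3 exon, replicate 2 footprints, chr12:109542941-109543140: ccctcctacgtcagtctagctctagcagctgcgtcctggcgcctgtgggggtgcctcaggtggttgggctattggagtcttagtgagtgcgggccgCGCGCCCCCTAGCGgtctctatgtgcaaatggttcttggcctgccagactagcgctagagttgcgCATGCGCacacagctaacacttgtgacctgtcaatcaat
Kcnq1ot1 start, central 300 bases, replicate 1 footprints, chr7:143296501-143296800: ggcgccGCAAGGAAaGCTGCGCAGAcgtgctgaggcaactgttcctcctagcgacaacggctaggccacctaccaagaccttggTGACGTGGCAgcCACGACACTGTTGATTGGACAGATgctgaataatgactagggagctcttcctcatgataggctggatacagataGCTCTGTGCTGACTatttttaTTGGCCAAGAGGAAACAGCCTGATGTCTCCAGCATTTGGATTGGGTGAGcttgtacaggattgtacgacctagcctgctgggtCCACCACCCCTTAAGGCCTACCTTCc
Peg3 intron, replicate 1 peak, YY1 pattern, chr7:6729461-6729700: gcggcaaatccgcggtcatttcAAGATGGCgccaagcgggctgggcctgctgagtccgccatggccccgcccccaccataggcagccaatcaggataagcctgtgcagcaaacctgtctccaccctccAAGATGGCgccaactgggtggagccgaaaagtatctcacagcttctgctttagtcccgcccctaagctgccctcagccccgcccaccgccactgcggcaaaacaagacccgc
Airn start in Igf2r, replicate 1 peak, ZFP57 letters, chr17:12741221-12741500: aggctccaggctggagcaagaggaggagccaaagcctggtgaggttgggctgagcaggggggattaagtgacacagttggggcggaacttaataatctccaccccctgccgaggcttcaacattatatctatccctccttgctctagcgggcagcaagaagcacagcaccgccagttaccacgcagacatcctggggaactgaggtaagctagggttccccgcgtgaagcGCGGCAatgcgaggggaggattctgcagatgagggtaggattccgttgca

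The longer peak lists held 47198 peaks in replicate 1 and 36523 in replicate 2, and the footprint lists 123897 and 94430. A peak's value is the signal deposited by the authors, and the median was 1.232 and 1.248. All values of a library are whole multiples of 1 step. If a step is 1 read, peaks of median height rest on 100 and 90 reads. The 95% Poisson intervals given with peak values depend on that assumption and cover counting error only. No source used here says how the libraries were scaled to each other, so values are set side by side, and with 2 libraries in 1 group no test between them was made. Replicate 2 was lower at 84.3% of the 26687 peaks that overlapped 1 to 1, with a median log2 ratio of -0.50. As a check of the tissue, 9 of 10 erythroid markers had a promoter peak in both libraries. So did 4 of 10 hepatoblast, 1 of 6 endothelial, 2 of 7 stellate and mesenchymal and 1 of 5 macrophage markers. Promoter peaks in both libraries were found at 26.6% of all genes and 54.1% of protein-coding genes. The hepatoblast genes Alb and Hnf4a had none in either library. The part of that mix of cells in the values of the imprinted genes was not tested.

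A gene was counted as open at its promoter when a peak lay within 1 kb of any of its annotated transcript starts. By this count 7 of the 10 imprinted genes were open in replicate 1, where 29.6% of all genes were, and 8 in replicate 2, where 27.4% were. The same 7 were open in both: H19, Igf2r, Cdkn1c, Kcnq1ot1, Meg3, Peg3 and Grb10. Across all genes the share open in both was 26.6%, and across protein-coding genes 54.1%. A gene with more annotated starts has more places to be counted open. The 10 genes have from 1 (Kcnq1ot1) to 11 (Meg3), and the part of start number in these shares was not tested. Mest was open in replicate 2 only, and Igf2 and Dlk1 in neither library. The 3 non-coding members were all open, and the 7 protein-coding ones included all 3 that were not open in both.

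CpG content divides the 10 genes. A start was called CpG-rich when the 1001 bases around it had a ratio of observed to expected CpG of at least 0.6 and a GC content of at least 50%. All 7 protein-coding members have such a start, and 4 of these 7 were open in both libraries, whereas 83.3% of all genes with a CpG-rich start were. H19, Kcnq1ot1 and Meg3 have none, and all 3 were open, against 8.45% of genes without a CpG-rich start. With 7 and 3 genes these shares are coarse, and no test was made of them. They also depend on the distances chosen. Meg3 counts through a peak 673 bases from its nearest start, and within 500 bases only 6 of the 10 genes were open in both, without Meg3. A Kcnq1ot1 peak of replicate 1, 729 bases from its start, had a CpG ratio of 1.14 over 300 bases. The start peaks themselves were as CpG-rich as other promoter peaks: their median CpG ratio over 300 bases was 0.766 in replicate 1 and 0.703 in replicate 2, against 0.735 and 0.759 for all promoter peaks.

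In both libraries the median start peak of these genes was lower than the median promoter peak. The 13 start peaks of replicate 1 had a median value of 1.56, against 1.93 for all 24157 promoter peaks, and the 14 of replicate 2 had 1.05 against 1.82 for 21635. The highest was the Peg3 peak of replicate 1, 6.12 (95% interval 5.60 to 6.69). It stood at the 87.5th percentile of all peaks and the 77.4th of promoter peaks. The lowest was 0.665 in replicate 1, found at both Kcnq1ot1 and Grb10, and 0.527 in replicate 2, at Mest. Of the peaks nearest the 1 kb limit, those just inside were 0.749 at Kcnq1ot1, 909 bases from the start, and 0.804 at Mest, 870 bases away, both in replicate 2. Those just outside were the Peg3 intron peaks, 4.28 at 1459 bases in replicate 1 and 1.497 at 1439 bases in replicate 2.

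**Figure D1:**
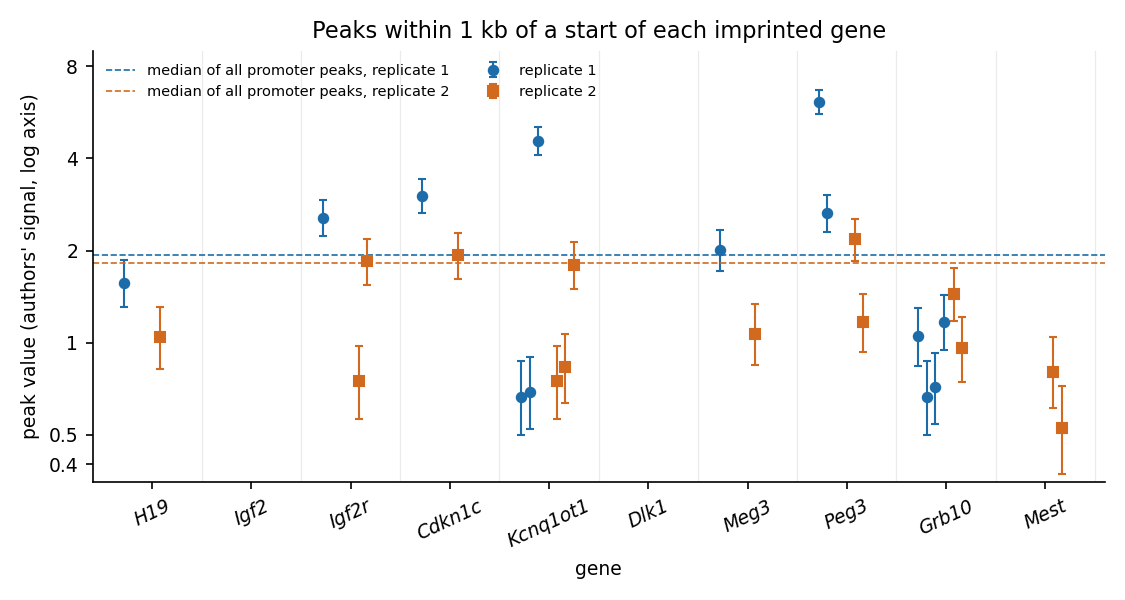
Value of every peak within 1 kb of a start of each gene (log axis), with 95% Poisson intervals if a value step is 1 read; circles are replicate 1, squares replicate 2, dashed lines the medians of all promoter peaks. Igf2 and Dlk1 have no point, Mest has points in replicate 2 only, and Peg3 and Kcnq1ot1 show the highest points of replicate 1, 6.12 and 4.57.

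H19 is a non-coding RNA and Igf2 encodes insulin-like growth factor 2, a main fetal growth factor. They are neighbours that share enhancers downstream of H19, and the control region between them lies just upstream of H19 and binds CTCF on the maternal chromosome. H19 spans chr7:142575529-142578143 and Igf2 chr7:142650766-142666816, both on the minus strand. The H19 start had a peak in each library, at 142578141 to 142578380 with 1.56 (95% interval 1.30 to 1.86) in replicate 1 and at 142578160 to 142578355 with 1.04 (0.818 to 1.30) in replicate 2. Both were lower than the median promoter peak of their library, and they stood at the 59.2nd and 41.8th percentile of all peaks. Replicate 1 had 2 footprints there and replicate 2 had 1, and none of these overlapped between libraries.

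Igf2 had no peak within 1 kb of any of its 9 annotated starts in either library, although 3 of those starts are CpG-rich. The nearest trace was in replicate 1, where stretches of 6 and 41 bases from 142657299 to 142657347 reached the authors' false discovery rate (FDR) limit of 0.05, with a lowest FDR of 0.0315. Replicate 2 had no such stretch near an Igf2 start. Of all genes without a promoter peak, 1.36% had such a stretch near a start in replicate 1 and 1.25% in replicate 2. These shares take in genes of any start number and CpG content, and none is given for genes with as many starts as Igf2.

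Upstream of H19, the 4 clustered CTCF-pattern matches printed above lie 2168, 2623, 3649 and 3893 bases from the H19 5′ end, all on the minus strand. Only the second was in a peak, and only in replicate 2, where the peak at 142580704 to 142580831 had a value of 1.07 (95% interval 0.842 to 1.33), a lowest FDR of 0.00230 and 1 footprint. That footprint, at 142580729 to 142580735, did not cover the CTCF match. Replicate 1 had only a 17-base stretch there, 142580742 to 142580758, with a lowest FDR of 0.0414. The other 3 matches had no peak, no footprint and no stretch under the FDR limit within 100 bases in either library. The second match is also the one that the ZFP57 letters do not overlap. That pairing rests on 1 peak of replicate 2, and a link between the 2 was not tested.

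The strongest open sites between the genes stood far from both. At 142610661 to 142610880 replicate 1 had a peak of 1.97 (1.68 to 2.30), and replicate 2 had 1.51 (1.24 to 1.82) at 142610681 to 142610920. This site is 32518 bases from the nearest H19 start, in an intron of the predicted gene Gm33148. It holds the CTCF match of that intron printed above, on the plus strand, under a footprint in both libraries: 142610749 to 142610772 in replicate 1 and 142610750 to 142610779 in replicate 2. A neighbouring site was higher, with 3.56 (3.16 to 3.996) at 142611181 to 142611400 in replicate 1 and 2.22 (1.89 to 2.59) at 142611141 to 142611420 in replicate 2. Its 5 and 3 footprints included 1 that overlapped between libraries and matched the KLF-type pattern CCNCNCCC, and 2 further overlapping pairs without a match. KLF factors bind GC-rich boxes and include Klf1, the erythroid member. That pattern is common, in 53.5% and 54.3% of 300-base windows at all peaks. Replicate 2 had a further, low peak beside them, 0.554 at 142610461 to 142610616.

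In all, the interval from H19 to Igf2 (91288 bases, both genes included) had 3 peaks and 10 footprints in replicate 1 and 5 peaks and 8 footprints in replicate 2. It holds 22 CTCF-pattern matches, of which 3 lay in a peak of either library, 2 in a peak of both, and 1 under a footprint of both. Of the 2 matches in peaks of both libraries, the second is at the H19 start, 142578246 to 142578257. In replicate 1 only, a footprint at 142578255 to 142578261 overlapped the edge of that match. Downstream of H19, on the side of the shared enhancers, replicate 1 alone had a peak 7169 bases from the nearest H19 start, 142569047 to 142569369, with 1.18 (0.958 to 1.44) and 2 footprints. Replicate 2 had no stretch under the FDR limit there. Farther out, both libraries had peaks at Mrpl23, a mitochondrial ribosomal protein gene: 3.39 and 3.33 at 142533061, with 5 footprints each, of which 3 and 4 overlapped the other library's, and 1.48 and 1.11 at 142538001, with 2 footprints each. On the far side of Igf2, at the insulin gene Ins2, replicate 1 alone had peaks of 0.407 and 0.444.

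**Figure D2:**
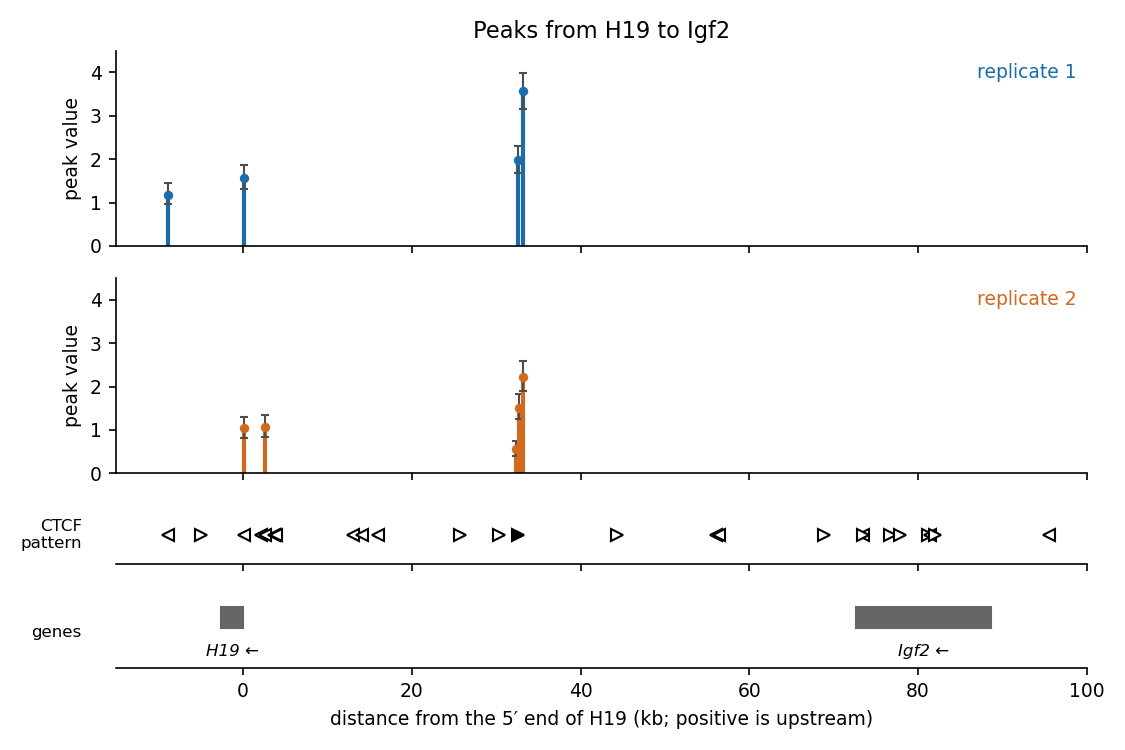
Peak value in replicate 1 (top) and replicate 2 (second) by distance from the 5′ end of H19 in kb, with 95% Poisson intervals if a value step is 1 read; triangles are CTCF-pattern matches pointing in the pattern's direction, filled where both libraries have a footprint, and bars are the genes. From H19 to Igf2 the pair of sites in the Gm33148 intron holds the highest peak of each library, 3.56 and 2.22, and no peak stands at Igf2.

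Dlk1, a transmembrane protein that restrains differentiation and is widely used as a surface marker of fetal liver hepatoblasts, and Meg3, a maternally expressed long non-coding RNA, share a control region between them. Dlk1 spans chr12:109452823-109463336 and Meg3 chr12:109541001-109571726, both on the plus strand. Dlk1 had no peak within 1 kb of any of 9 starts, 6 of them CpG-rich, and no stretch under the FDR limit there in either library. From Dlk1 up to Meg3 no peak, footprint or FDR stretch was listed, the control region included.

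The only peak of the interval of 118904 bases was in an exon of Meg3, 673 bases from its nearest start. It reached 2.01 (1.71 to 2.34) in replicate 1 at 109542941 to 109543060 and 1.07 (0.842 to 1.33) in replicate 2 at 109542941 to 109543140. The 2 intervals do not overlap, and replicate 2 was also lower at most other peaks. This peak carries 1 of the 15 CTCF-pattern matches of the interval, on the minus strand, under footprints at 109543031 to 109543056 and 109543037 to 109543050. A footprint over the NRF1 pattern GCGCATGCG, at 109543093 to 109543110 in replicate 1 and 109543102 to 109543108 in replicate 2, lay beside it. NRF1 is a promoter-binding factor of nuclear genes for mitochondrial proteins, and its pattern was in 1.44% and 1.64% of windows at all peaks. In replicate 1 the NRF1 footprint lay past the end of the peak itself.

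The highest site near these genes was 14803 bases upstream of the nearest Dlk1 start, in intergenic DNA. Replicate 1 had 4.10 (3.67 to 4.57) at 109437801 to 109438020, the 81.5th percentile of its peaks, and replicate 2 had 2.54 (2.18 to 2.93) at 109437821 to 109438020, the 74.4th. A plus-strand CTCF match lay under footprints of 31 bases in replicate 1 and 25 bases in replicate 2. The log2 ratio between libraries differed from the median of peaks of like height by -0.09. Lower peaks in a single library stood nearby, 1.37 in replicate 1 at 109436381 and 0.693 in replicate 2 at 109437052. The CTCF-pattern matches footprinted in both libraries on the 2 sides of Dlk1 therefore point toward each other, plus strand upstream of Dlk1 and minus strand in Meg3.

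**Figure D3:**
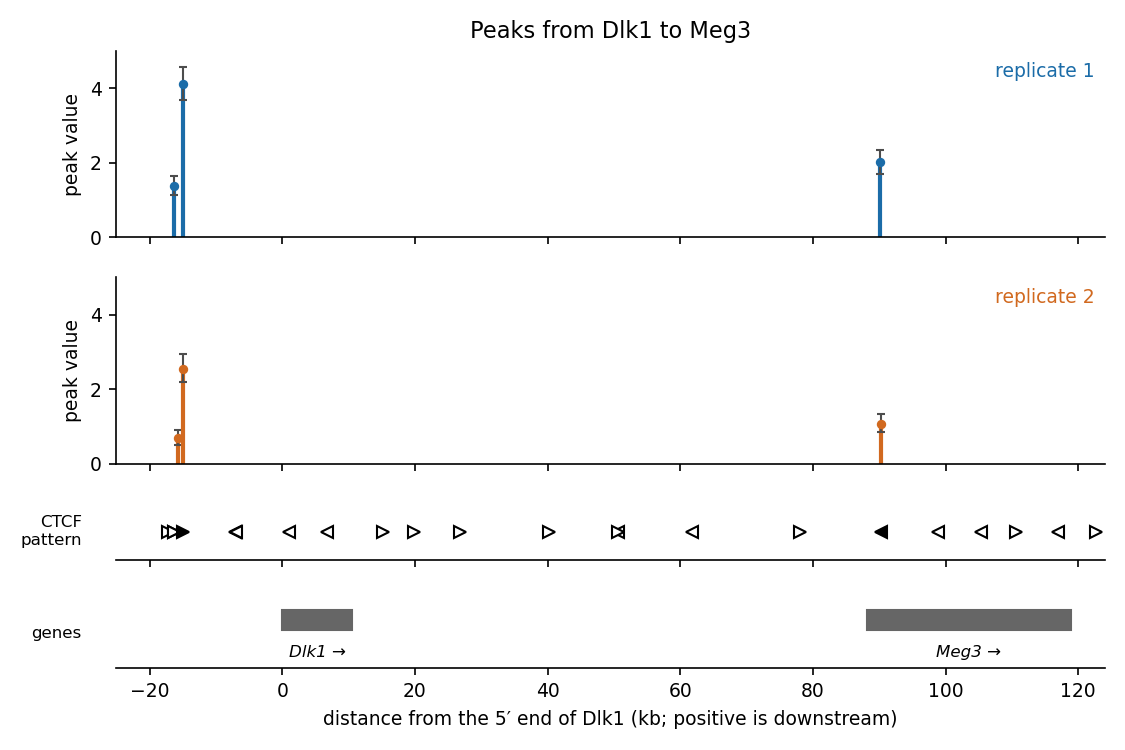
Peak value in replicate 1 (top) and replicate 2 (second) by distance from the 5′ end of Dlk1 in kb, with 95% Poisson intervals if a value step is 1 read; triangles are CTCF-pattern matches in the pattern's direction, filled where footprinted in both libraries, and bars are the genes. Peaks stand upstream of Dlk1 and within Meg3 (2.01 and 1.07), with none at Dlk1 or between the genes.

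Cdkn1c encodes p57, an inhibitor of cyclin-dependent kinases that limits growth, and Kcnq1ot1 is the paternally expressed antisense RNA whose promoter is the control region of that cluster. Cdkn1c spans chr7:143458339-143461050 and Kcnq1ot1 chr7:143203458-143296549, both on the minus strand. Cdkn1c was open at its start in both libraries, with 3.02 (2.65 to 3.42) at 143460881 to 143461100 in replicate 1 and 1.93 (1.62 to 2.28) at 143460941 to 143461100 in replicate 2. A footprint with the KLF-type pattern overlapped between libraries there.

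Upstream of Cdkn1c lay a row of peaks with CTCF matches. The first, 2911 bases away at 143463961, had 1.52 and 1.26 in replicates 1 and 2, and the second, at 143466381, had 1.39 and 1.71. The third, in an intron of the neighbouring transporter gene Slc22a18 at 143480641, had 1.18 and 1.21. All 3 had the CTCF match under a footprint in both libraries. The second was among the few peaks here that were higher in replicate 2: its log2 ratio stood 0.73 above the median of peaks of like height, the 96.7th percentile. Between them a peak at 143470048, with 1.01 and 1.07, had a CTCF match wholly inside the peak in replicate 1 only, footprinted there. A peak 44911 bases away at 143505961 had 2.08 and 1.12 with a footprint in both libraries, and replicate 1 alone had 1.29 at 143464870. Cdkn1c thus had 5 shared distal peaks, the most of the 10 genes.

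At the Kcnq1ot1 start, inside an intron of Kcnq1, replicate 1 had 4.57 (4.12 to 5.06) at 143296481 to 143296820 with 7 footprints and a lowest FDR of 1.10e-44. Replicate 2 had 1.79 (1.49 to 2.12) at 143296421 to 143296660 with 4 footprints. Of the 7, 6 overlapped a footprint of replicate 2, 3 of them past the end of its peak, and none of the 7 matched any of the 10 patterns searched. The log2 ratio of replicate 2 to replicate 1 was -1.35, where peaks of like height had a median of -0.56. The difference, -0.79, is at the 2.76th percentile of all peaks that overlapped 1 to 1. Lower peaks lay within the transcript, 0.665 and 0.690 in replicate 1 and 0.749 and 0.832 in replicate 2. The last pair overlaps itself, since the list of replicate 2 holds some overlapping peaks. ZFP57 letters were found 2 times in the peak at 143295681 of replicate 1 and 3 times in the central 300 bases of the overlapping peak at 143295221 of replicate 2. Deep in Kcnq1, beyond the end of Kcnq1ot1, a peak at 143153941 had 1.97 and 1.93, with a footprint shared between libraries.

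Peg3 encodes a zinc finger protein expressed from the paternal allele and studied for its roles in growth and maternal behaviour, and it shares a start region with Usp29, transcribed the other way. Its body is chr7:6703892-6730431 on the minus strand, and the start region contains clustered binding sites for YY1, a zinc finger factor. Peg3 had the highest start peak of the 10 genes. At the start itself replicate 1 had 2.65 (2.31 to 3.03) at 6730341 to 6730620 and replicate 2 had 1.16 (0.929 to 1.44) at 6730461 to 6730520. The highest peak lay 719 bases from the nearest start, within the gene, with 6.12 (5.60 to 6.69) at 6729461 to 6729700 in replicate 1 and 2.18 (1.85 to 2.54) at 6729401 to 6729740 in replicate 2. Its 6 and 5 footprints were followed by 9 and 8 in the next peak, 4.28 (3.84 to 4.75) at 6728361 to 6728960 in replicate 1 and 1.497 (1.23 to 1.81) at 6727941 to 6728980 in replicate 2. Deeper in the intron came 1.53 and 0.873 at 6727741 and 6727681, and 1.68 and 1.04 at 6727381 and 6727361. In replicate 1 all 5 of these peaks lay in a single stretch of 3434 bases under the FDR limit, 6727264 to 6730697. Replicate 2 covered the same span with broken stretches, the longest 1702, 785 and 696 bases.

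Within that stretch the pattern GCCATNTT, the core of the YY1 site (reverse strand AANATGGC), was found 12 times, and all 12 were on the strand of Peg3. Of these, 11 read GCCATCTT and 1 read GCCATTTT, with starts 30 to 603 bases apart. Peaks covered 10 of the 12 in replicate 1 and all 12 in replicate 2. A footprint overlapped 4 matches in each library by at least 1 base, and those at 6728451, 6728880 and 6729589 had one in both. Of these 3, only the match at 6729589 to 6729596 lay mostly under a footprint in both, 6729584 to 6729616 and 6729590 to 6729596. For the match ending at 6728887 both footprints began at 6728886, and for that ending at 6728458 they began at 6728455 and 6728457. In replicate 2 the overlap with the match at 6728739 was its last base, 6728746. For comparison, 6.50% and 6.60% of 300-base windows at all peaks of replicates 1 and 2 hold the pattern at least once. The reverse-strand letters of the 2 matches at 6729483 and 6729589 stand in capitals in the Peg3 peak printed above.

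**Figure D4:**
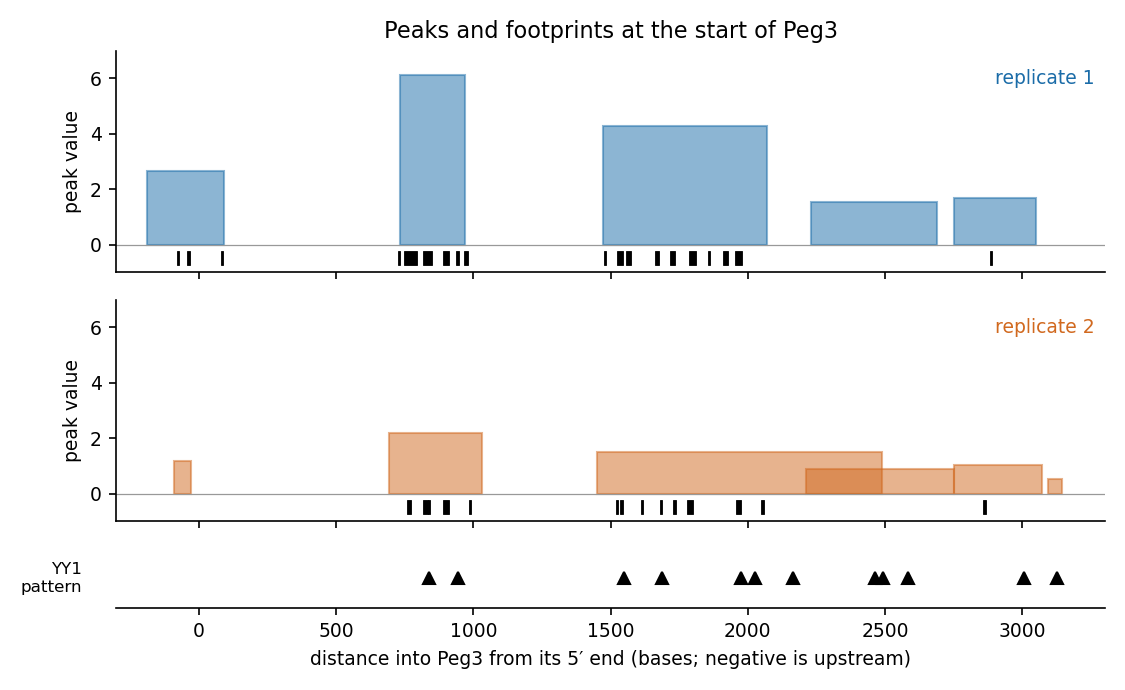
Peaks (boxes, height is the value), footprints (black bars below 0) and YY1-pattern matches (triangles) by distance into Peg3 from its 5′ end in bases, replicate 1 above replicate 2. The boxes of replicate 1 reach 6.12 and 4.28 where those of replicate 2 reach 2.18 and 1.497, and the 12 matches lie inside the gene from 835 to 3123 bases.

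Peg3 differed between the libraries more than most sites. The log2 ratio of its highest start peak differed from the median of peaks of like height by -0.87, and that of the peak at the start by -0.75. These stand at the 1.92nd and 3.34th percentile of all peaks that overlapped 1 to 1. Kcnq1ot1, at the 2.76th, is close to them, and Meg3, at -0.50, is at the 10.9th. Of the 2 Grb10 start peaks, the inner one differed by 0.83 and the one nearest the 5′ end by 0.01, at the 98.0th and 51.1st percentile. Over the 9 start peaks that overlapped 1 to 1 the median log2 ratio was -0.65, over all 28 peaks near the genes -0.40 and over all 26687 peaks -0.50. With 1 library on each side, the difference at a single gene has no replicate check.

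**Figure D5:**
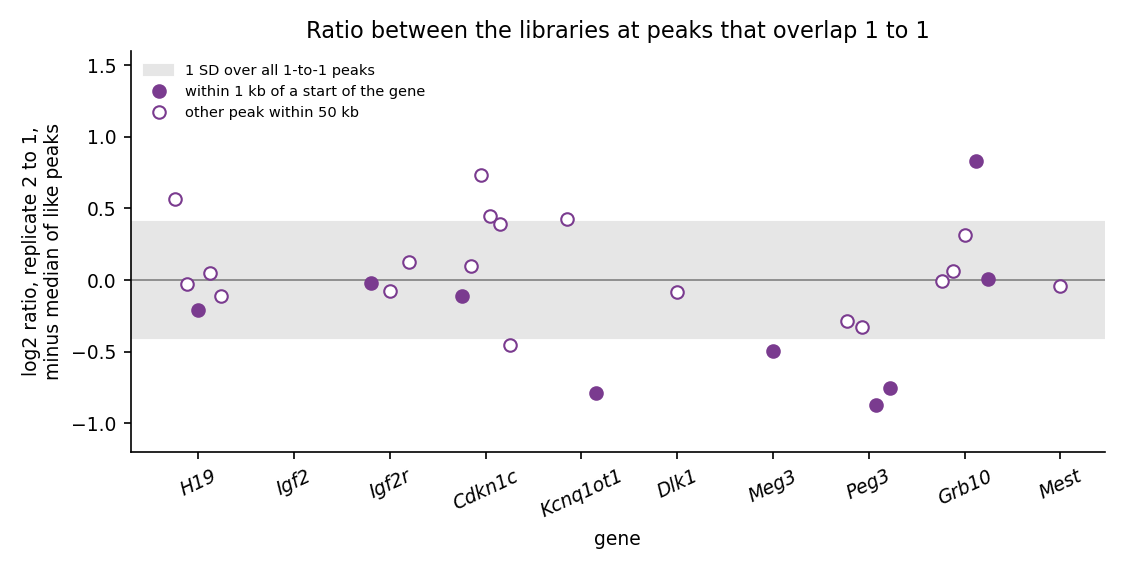
Log2 ratio of replicate 2 to replicate 1 minus the median of peaks of like height, for the 28 peaks near the genes that overlap 1 to 1; filled points are within 1 kb of a start, open points are other peaks within 50 kb, and the band is 1 SD (0.407) over all 26687 peaks. Peaks near both H19 and Igf2 are drawn under H19; start peaks of Peg3, Kcnq1ot1 and Meg3 and an open Cdkn1c point (-0.45) lie below the band, and a Grb10 start peak (0.83) and open points of H19, Cdkn1c and Kcnq1ot1 lie above it.

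Igf2r encodes the receptor that removes IGF2 from the cell surface, and it is silenced on the paternal chromosome by Airn, an antisense RNA that starts in an Igf2r intron. Igf2r spans chr17:12682406-12769664 on the minus strand. Its start had 2.56 (2.23 to 2.94) at 12769561 to 12769800 in replicate 1 with 3 footprints, and 1.84 (1.54 to 2.18) at 12769601 to 12770040 in replicate 2 with 9. A footprint of replicate 1 over a KLF-type match, cgcccccgccccgcctcc, touched a footprint of replicate 2. Replicate 2 had a further low peak in the first intron, 0.749 at 12769095. At the Airn start, 9300 bases from the nearest Igf2r start, replicate 1 had 1.13 (0.914 to 1.39) with 3 footprints and replicate 2 had 0.970 (0.756 to 1.23) with none. This peak, printed above, holds the ZFP57 letters once. Around it replicate 1 had low peaks at 12740472, 12741597, 12742241, 12742564 and 12745928, with values from 0.468 to 0.838. Of these only the one at 12741597 overlapped a peak of replicate 2. A CTCF match 40999 bases upstream of Igf2r lay in a peak of both libraries, 0.973 and 0.846, and was footprinted in replicate 1 only.

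Grb10 encodes an adaptor that dampens insulin and IGF receptor signalling. It spans chr11:11930508-12038683 on the minus strand and has 9 annotated starts. Its start peaks gathered at 2 places. Nearest the 5′ end replicate 1 had 1.17 (0.947 to 1.43) at 12037161 to 12037420 and replicate 2 had 0.956 (0.744 to 1.21) at 12037194 to 12037439. At the inner starts replicate 1 had 1.05 (0.837 to 1.30) at 12025761 to 12026280 with 7 footprints, and replicate 2 had 1.44 (1.18 to 1.75) at 12025761 to 12026020 with 3. Of the 9 start peaks that overlapped 1 to 1, this was the one that was higher in replicate 2. Its log2 ratio of 0.46 compares with a median of -0.37 for like peaks, and the difference is at the 98.0th percentile. The height intervals of the inner peak overlap between libraries. Replicate 1 alone had 0.665 at 12026717 and 0.715 at 12036404. In the gene body, peaks with a footprint in both libraries lay at 11963661, with 1.98 and 1.52, and at 11973501, with 1.70 and 1.61. The first holds the GATA pattern AGATAA, which is in 13.8% and 11.4% of windows at all peaks.

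Mest, a paternally expressed gene of the hydrolase family, spans chr6:30723547-30748465 on the plus strand. Replicate 2 had peaks of 0.804 (0.611 to 1.04) at 30736861 to 30737180, 870 bases from the nearest start, with 4 footprints, and of 0.527 (0.373 to 0.723) at 30737941 to 30738051 with none. Replicate 1 had neither a peak nor a stretch under the FDR limit near any of the 10 starts. The only peak above the 90th percentile near any of the 10 genes was also here, at the start of the neighbouring centrosome gene Cep41, 29607 bases from Mest. It reached 9.50 (8.84 to 10.2) at 30693681 to 30693940 in replicate 1 and 5.02 (4.51 to 5.56) at 30693661 to 30693920 in replicate 2, with 7 and 5 footprints.

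Within 50 kb of the gene bodies there were 51 peaks in replicate 1 and 46 in replicate 2, each counted once. Of the peaks of replicate 1 over 1 kb from any annotated start, 18 overlapped a peak of replicate 2. At least 1 such shared distal peak lay near 8 of the 10 genes, where 40.6% of all genes had one, with a mean of 2 per gene against 0.861. The bodies of the 10 genes are longer, with a median of 25730 bases against 3331, and the part of gene length in that difference was not tested. Meg3 and Mest had no shared distal peak.

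Footprints near the 10 genes numbered 125 in replicate 1 and 78 in replicate 2, and 41 and 43 of them overlapped a footprint of the other library. The matching share over all footprints is not given here, so these overlaps cannot be read as high or low. In replicate 1, 84.3% of the 51 peaks had a footprint, against 76.8% of all its peaks, and in replicate 2 67.4% of 46, against 72.7%. The start peaks held 43 footprints in replicate 1, a mean of 3.31, and 31 in replicate 2, a mean of 2.21, while all promoter peaks had means of 2.89 and 2.91. A CTCF-pattern match inside the peak was found in 17 of the 51 and 16 of the 46 peaks near the genes, against 19.8% and 21.6% of all peaks. A footprint covered or came within 5 bases of the match in 10 of those 17 and 7 of those 16 peaks. Across all peaks with a match this was so in 65.5% and 55.3%.

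Other patterns were read in 300-base windows. The ZFP57 letters were in 11 of 51 and 11 of 46 windows near the genes, against 14.8% and 16.9% at all peaks. The YY1 pattern was in 7 and 5, against 6.50% and 6.60%. The GATA pattern was in 13 of 51 and 8 of 46, against 13.8% and 11.4% at all peaks, and the KLF-type pattern in 30 and 25, against 53.5% and 54.3%. NFE2 and AP-1 share TGANTCA, which was in 4 windows of replicate 1 and none of replicate 2, against 6.99% and 6.38% at all peaks. Outside the windows, 2 longer peaks of replicate 2 do hold it, at Kcnq1ot1 (143295221, 820 bases) and Peg3 (6727941, 1040 bases). The HNF4 pattern CAAAGTCC was in none of the windows of either library, against 1.21% and 1.19%. These short patterns can overlap one another, and a match is not a measured binding site.

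For context, 50 other imprinted genes were counted in the same way. Of these, 30 had a promoter peak in both libraries, 33 in replicate 1 and 30 in replicate 2, and 17 had none in either. A CpG-rich start is present in 32 of the 50. Their 60% open in both stands beside 26.6% of all genes and 54.1% of protein-coding genes. Among all genes with a CpG-rich start it was 83.3%. Some of the 50 share a start, such as Peg3's neighbour Usp29, so they are fewer sites than genes. Among those with a peak the median top promoter value was 2.24 and 2.39, against 2.56 and 1.61 for the 7 and 8 open members of the 10. By mean percentile over both libraries the highest were Inpp5f, an inositol phosphatase gene with an imprinted isoform, at 24.8 and 7.44, Nap1l4, a histone chaperone, at 17.0 and 8.33, Ube3a, a ubiquitin ligase imprinted in neurons, at 12.5 and 6.47, and Trappc9, a vesicle transport gene, at 11.8 and 6.24. Cobl, Dcn, Gpr1 and Ins2 are among the 17 without a peak.

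Of 25 genes that set or keep imprints or belong to the IGF pathway, 16 were open in both libraries, 18 in each, and 5 in neither. A CpG-rich start is present in 20 of the 25. Their 64% open in both stands beside 26.6% of all genes, 54.1% of protein-coding genes and 83.3% of genes with a CpG-rich start. By mean percentile over both libraries the highest were Yy1, the factor named above, at 17.4 and 6.13, Irs2, an insulin receptor substrate, at 14.1 and 6.68, Dnmt1, the maintenance DNA methyltransferase, at 14.4 and 6.40, and Uhrf1, its partner, at 12.7 and 6.68. Dnmt3l, Dppa3, Igf1 and Igfbp2 had no promoter peak in either library. Ctcf itself had 6.19 and 5.61. Zfp57 had a peak of 0.471 in replicate 2 and none in replicate 1, and Zfp445, a second zinc finger protein that keeps imprints, had 3.14 and 2.41. The IGF1 receptor gene Igf1r had 6.07 and 3.34, and the insulin receptor gene Insr 5.15 and 3.11. Ctcf, Zfp57, Zfp445, Igf1r and Insr were named after their values were seen.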

How the data were processed

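The members and gene lists were chosen with earlier results of these data known. For each library the authors deposited 2 peak lists, footprints and a false discovery rate track, all made from that library alone and aligned to mm10 per the labels. The caller and cutoff behind the peaks are not given in these labels. Column 7 of the peak lists holds the deposited signal, the only peak measure that varies. The deposited footprint score is a constant, 0.01, so positions were used. The deposited FDR is an adjusted p-value (q-value type) listed only for stretches under 0.05, and touching stretches were joined.

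Chromosomes 1 to 19, X and Y and the longer peak list were used with GENCODE vM21, all transcript starts included. Peaks overlapped when they shared at least 1 base. Promoter peaks lay within 1000 bases of a start, and neighbouring peaks within 50000 bases of the gene body. Sequences came from the RefSeq genome GRCm38, whose chromosomes held every peak. The ratio between libraries was set against a running median over 501 peaks ranked by mean log value, a step tested on simulated data. Depth is known only through the value step: if 1 step (0.0123 and 0.0139) is 1 read per 1e+06, the libraries held 81.2 and 72.1 times 1e+06 reads. No test between groups was possible. All members, their start peaks and the peaks of the 2 intervals are named. Other peaks are named when over the 90th percentile or when shared with footprints in both libraries, and a few further ones were named after their values were seen. From the other imprinted genes and the imprint regulators, at most 4 genes are named by highest mean percentile of their promoter peaks and at most 4 without one, in alphabetical order. Alternatives were the shorter lists, only peaks in the upper 50% of values, different distances or overlaps, fewer starts and leaving out each replicate. Python 3.11.15, pandas 2.3.3, numpy 2.4.6, scipy 1.17.1 and matplotlib 3.10.9 were used.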

Additional observations from a re-analysis of the deposited data

How the results depend on the processing

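Of 40 recomputed counts, 27 stayed within 1.5 times the reported one and 13 did not. The shorter peak lists left 33 and 27 peaks within 50 kb (from 51 and 46) and 2 in the H19 to Igf2 interval in replicate 2 (from 5), the peak upstream of H19 and the H19 start peak of replicate 2 being among those lost, so that 6 of the 10 genes were open in both libraries. With the upper 50% of peaks by value, 4 genes were open in both (Igf2r, Cdkn1c, Kcnq1ot1 and Peg3), and 26 and 17 peaks lay within 50 kb. The same setting left 26 footprints in start peaks of replicate 1 (from 43), 2 peaks from H19 to Igf2 and 0 from Dlk1 to Meg3 in replicate 2, and 10 shared distal peaks (from 18). Within 500 bases of a start, 20 footprints remained in replicate 2 (from 31), and within 20000 bases of the genes 11 shared distal peaks. Leaving out a replicate gave 7 to 8 open genes and 27 to 31 distal peaks, since no overlap is then asked for; without replicate 2 the distal count was 31. Apart from leaving out a replicate, each of these settings admits fewer peaks or footprints by construction. Using only the start of the gene record, 5 genes were open in both, and the share of all genes at that setting is not given here. No paired analysis was possible because the 2 libraries form a single group. Whether depth sets which peaks appear in 1 list only was not tested, and such peaks had values both under and over 1.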
